A study of Mus musculus with 15 samples.

Results

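Rnu11, Rnu12, Rnu1b2 and Rpph1 are small noncoding RNA genes of RNA processing, and their levels are described here across 5 groups of mouse hypothalamus samples. They were taken by gene name, 4 of 24831 names and 4 of 49404 transcripts in the deposited table, and each name had 1 transcript, so the median per gene equals the transcript's own value. A filter kept the 17481 names whose average of the 5 group values reached 1 RPKM, and all 4 were among them. The series asks how thyroid hormone acts across generations, down to the F2. Its 15 samples were hypothalami of CD-1 mice, an outbred stock, at postnatal day 15, in the groups PGM, PGF, HM, HF and Control with 3 samples each. The treatment, ancestry and sex behind the group codes, and whether a sample held 1 animal or several, are not stated in the sources used here. All values are the authors' deposited means of RPKM, reads per kilobase of transcript relative to the mapped reads of the library, with 1 mean per group. No sample's own value was used, so no SD, interval or test accompanies any difference, the spread between samples and the depth are unknown, and 1 sample far from its group's others would not show. The genes were chosen because these levels differed, so their differences are a description.

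Introns are removed from messenger RNA by spliceosomes built on small nuclear RNAs, each wrapped in a protein particle. Most introns are of the major type, whose 5′ splice site is first bound by the U1 small nuclear RNA. A small class of introns, called minor or U12-type, is handled by another machine in which U11 binds the 5′ splice site and U12 the branch site, and the pair travel together as a U11/U12 particle of much lower abundance than U1. Genes with minor introns include sodium channel genes of neurons. RNase P is a ribozyme that trims the 5′ leader from precursor transfer RNAs, and Rpph1 encodes its catalytic RNA. The U1, U11 and U12 genes are transcribed by RNA polymerase II from special promoters, and Rpph1 by RNA polymerase III.

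The sequences of the 3 spliceosomal RNAs are shown because they carry the pairing that separates the roles of these RNAs. Each is the GENCODE M21 transcript on GRCm38, the assembly that mm10 names, read 5′ to 3′ with T for U. Capitals mark, near the 5′ end, the letters complementary to the splice signal that the RNA recognises, and further on the letters AATTTNT of the site that binds the ring of Sm proteins. In Rnu1b2 the first capitals pair with the consensus 5′ splice site of major introns, in Rnu11 with the CCTT core of the minor 5′ splice site, and in Rnu12 with the minor branch site without its bulged A.
Rnu11: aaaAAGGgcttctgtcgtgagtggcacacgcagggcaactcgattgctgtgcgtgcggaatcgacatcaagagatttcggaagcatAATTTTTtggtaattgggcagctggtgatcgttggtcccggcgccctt
Rnu12: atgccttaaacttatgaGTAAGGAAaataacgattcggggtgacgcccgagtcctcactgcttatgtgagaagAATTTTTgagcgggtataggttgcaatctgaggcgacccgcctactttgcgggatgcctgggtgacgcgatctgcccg
Rnu1b2: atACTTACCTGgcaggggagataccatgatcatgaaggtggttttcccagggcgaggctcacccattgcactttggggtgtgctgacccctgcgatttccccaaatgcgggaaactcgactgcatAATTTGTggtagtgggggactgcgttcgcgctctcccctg

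Rnu11 lies at chr4:132270080-132270213 on the minus strand, Rnu12 at chr15:83149644-83149794 on the plus strand, Rnu1b2 at chr3:96374021-96374185 on the plus strand and Rpph1 at chr14:50807449-50807767 on the minus strand. GENCODE gives them 134, 151, 165 and 319 bases in that order, as noncoding RNAs. RefSeq (GRCm38.p6) gives Rnu11 108 bases and Rpph1 325, and the length by which the authors divided is not stated in the sources used here, so levels of different genes are comparable only within that uncertainty. AATTTNT, searched on the RNA strand only, stood once in Rnu11 (positions 87 to 93), once in Rnu12 (74 to 80) and once in Rnu1b2 (126 to 132), without overlapping the recognition letters, and not in Rpph1. It was in 7.49% of 17115 GENCODE transcripts of 100 to 400 bases. ACTTACCTG of Rnu1b2 was in 0.374% of those transcripts, GTAAGGAA of Rnu12 in 0.473% and the short AAGG of Rnu11 in 74.9%. Rnu1b2 had 28 copies of at least 90% identity among GENCODE transcripts, including the identical Rnu1b1, and Rnu12 had 3 copies, the nearest at 96.0% identity. None of these copies is listed in the table, and Rnu11 and Rpph1 had none. How reads shared by copies were assigned is not stated in the sources used here, so the Rnu1b2 value is uncertain as that of 1 gene.

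The minor spliceosomal RNAs carried the main difference, with both far higher in PGF than in any other group. Rnu11 was at 363 RPKM for PGM, 994 for PGF, 416 for HM and 440.2 for HF, against 204 in Control. PGF stood alone at the top, at 2.26 times the next group, HF. The HF mean was 5.90% above HM and HM was 14.6% above PGM, and Control stood alone at the bottom with PGM 77.9% above it. In bulk tissue, fewer cells with an RNA and less of it per cell cannot be told apart. Each difference subtracts the log2(mean RPKM + 0.5) of Control from that of the other group, and the fold is on that scale. For Rnu11 it was 0.83 for PGM (1.78-fold), 2.28 for PGF (4.87-fold), 1.03 for HM (2.04-fold) and 1.11 for HF (2.16-fold).

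Rnu12 was at 312 RPKM for PGM, 985 for PGF, 374 for HM and 383 for HF, against 191 in Control. The order of the groups was that of Rnu11, with PGF at 2.57 times HF, HF 2.47% above HM, HM 19.9% above PGM and PGM 63.5% above Control. With no spread between samples at hand, whether HF, HM and PGM differ from each other for either RNA cannot be said. The difference of Rnu12 from Control was 0.71 for PGM (1.63-fold), 2.37 for PGF (5.16-fold), 0.97 for HM (1.96-fold) and 1.005 for HF (2.01-fold).

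**Figure D1:**
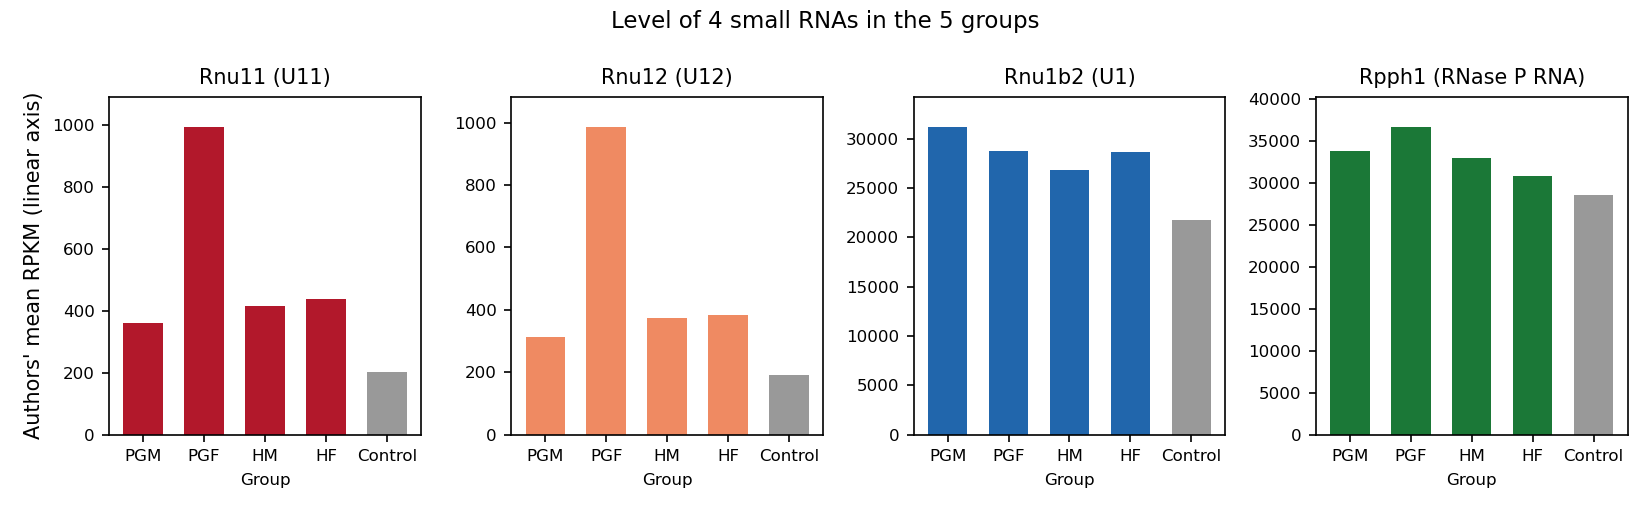
Authors' mean RPKM of the 4 small RNA genes (1 panel each, linear axes from 0, each with its own scale) in PGM, PGF, HM, HF and Control. Bars are group means with no error, since 1 mean per group was used. Rnu11 and Rnu12 reach 994 and 985 RPKM in PGF, against 204 and 191 in Control, while Rnu1b2 and Rpph1 vary by less than 1.5-fold.

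U1, an abundant splicing RNA, differed less. Rnu1b2 was at 31143 RPKM for PGM, 28774 for PGF, 26822 for HM and 28616 for HF, against 21709 in Control. Control was again lowest, but the top group was PGM, 8.23% above PGF, and PGF and HF lay 0.550% apart. HM was 23.6% above Control. The log2 difference of Rnu1b2 from Control was 0.52 for PGM (1.43-fold), 0.41 for PGF (1.33-fold), 0.31 for HM (1.24-fold) and 0.40 for HF (1.32-fold).

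Rpph1, the RNase P RNA, varied least. It was at 33882 RPKM for PGM, 36673 for PGF, 32943 for HM and 30819.9 for HF, against 28624 in Control. Its highest group mean was 1.28 times its lowest, where that ratio was 1.43 for Rnu1b2, 4.88 for Rnu11 and 5.17 for Rnu12. The log2 difference of Rpph1 from Control was 0.24 for PGM, 0.36 for PGF, 0.20 for HM and 0.11 for HF. Rmrp encodes the RNA of RNase MRP, a related ribonucleoprotein that shares most protein subunits with RNase P. Rmrp was at 24258 RPKM for PGM, 24696 for PGF, 22630.3 for HM and 23848 for HF, against 21559 in Control. Rpph1 and Rmrp thus both had PGF at the top and Control at the bottom. Each was common among 87 other small RNA genes that were not microRNA precursors. PGF was highest for 56.3% of these and Control lowest for 60.9%.

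Of the 4 RNAs, 2 were at least 1.5-fold higher in PGM than in Control, and these were Rnu11 and Rnu12. Over all genes kept, 2.34% were at least 1.5-fold higher in PGM. The same 2 RNAs passed 1.5-fold in PGF, where 2.16% of genes did, in HM, where 0.675% did, and in HF, where 0.658% did. Because the RNAs were picked on these contrasts, nothing follows from setting their counts beside the percentages. The 4 comparisons share the Control mean, so a Control value that happened to be low would make all of them high together. Control was the lowest group for 4 of 4 RNAs and for 23.3% of all genes kept. PGF was the highest group for 3 of 4 RNAs, for 56.3% of 87 other small RNA genes that were not microRNA precursors, and for 13.4% of all genes kept. All genes together had a median difference from Control of 0.005 for PGM, -0.03 for PGF, -0.03 for HM and 0.02 for HF.

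Between the groups other than Control, the minor spliceosomal RNAs separated PGM from PGF and hardly HM from HF. Rnu11 was at 363 RPKM in PGM against 994 in PGF, a difference of -1.45, and Rnu12 at 312 in PGM against 985 in PGF, a difference of -1.66. These 2 of 4 RNAs were at least 1.5-fold lower in PGM than in PGF, which 0.555% of all genes were. The RNAs were picked on these levels, so nothing follows from that percentage. Most of the 87 other small RNA genes were also lower in PGM than in PGF. By any amount it was 71 of them, and by at least 1.5-fold 18 (20.7%). The median difference of the 87 was -0.18 for PGM minus PGF and 0.01 for HM minus HF. For the 29 other small RNA genes averaging at least 100 RPKM, microRNA precursors included, these medians were -0.08 and -0.02. Of the 29, 23 were lower in PGM by any amount and 3 (10.3%) by at least 1.5-fold. Rnu1b2 differed by 0.11 and Rpph1 by -0.11 between PGM and PGF. For HM minus HF the differences were -0.083 for Rnu11, -0.035 for Rnu12, -0.093 for Rnu1b2 and 0.10 for Rpph1, so 0 of 4 passed 1.5-fold in either direction, where 1.68% of all genes did.

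The U11 and U12 levels stayed close to each other in every group while their level relative to U1 did not. The ratio of Rnu11 to Rnu12 was 1.16 for PGM, 1.01 for PGF, 1.11 for HM and 1.15 for HF, against 1.07 in Control. The ratio of Rnu1b2 to Rnu11 was 85.9 for PGM, 28.9 for PGF, 64.5 for HM and 65.01 for HF, against 106 in Control. The ratio of Rnu1b2 to Rnu12 was 99.9 for PGM, 29.2 for PGF, 71.8 for HM and 74.7 for HF, against 114 in Control. A ratio within a group does not depend on any factor applied to that group's mean as a whole. It can still depend on size selection and on how reads shared by Rnu1b2 copies were assigned, neither of which is stated. The ratio of Rpph1 to Rmrp ranged over the groups only between 1.29 in HF and 1.48 in PGF.

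**Figure D2:**
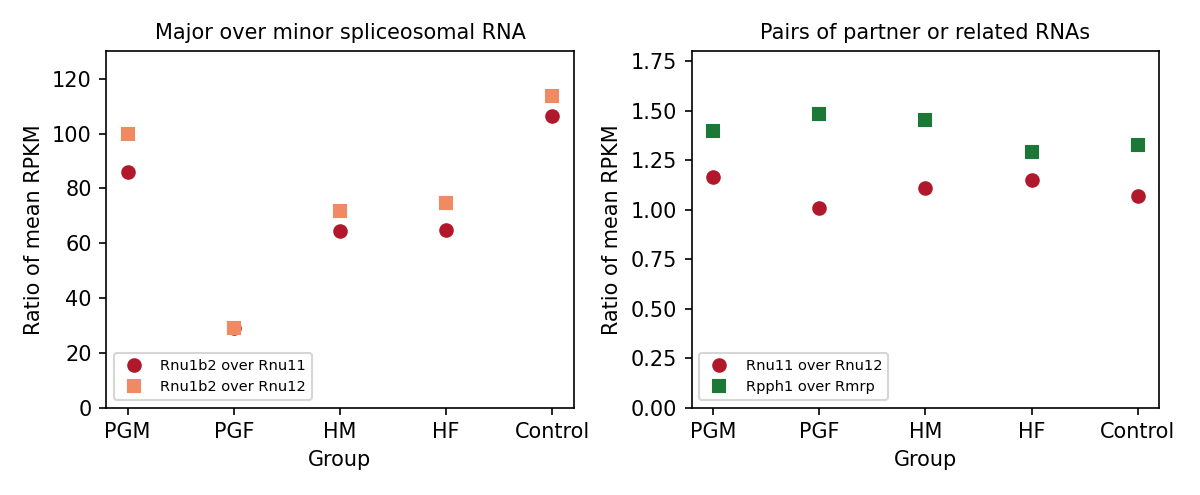
Ratios of mean RPKM within each group, on linear axes from 0. On the left Rnu1b2 over Rnu11 (circles) and over Rnu12 (squares) is near 29 in PGF, against 106 and 114 in Control; on the right Rnu11 over Rnu12 stays between 1.01 and 1.16 and Rpph1 over Rmrp between 1.29 and 1.48.

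Rnu11 and Rnu12 had some of the larger differences among the small RNA genes listed, part of which were also higher than in Control. The table named 436 other small noncoding RNA genes, of which 277 were under the filter. Of the 159 kept, 72 were microRNA precursors, which often lie in introns of other genes, and 87 were mostly small nucleolar RNAs, the guides of RNA modification. These 87 had a median difference from Control of 0.29 for PGM, 0.49 for PGF, 0.30 for HM and 0.25 for HF, and Control was the lowest group for 60.9% of them. Of the 87, 20 were at least 1.5-fold higher for PGM, 36 for PGF, 22 for HM and 19 for HF. At least 1.5-fold lower were 3, 2, 0 and 0 in the same groups. Over all genes kept, 2.34%, 2.16%, 0.675% and 0.658% were that much higher in the same order. That much lower were 2.28%, 1.88%, 0.864% and 0.172% of all genes. Of the 159, 29 averaged at least 100 RPKM, and the shares at least 1.5-fold higher were smaller among them. They were 10.3% for PGM, 31.0% for PGF, 10.3% for HM and 10.3% for HF. For the 87 these shares were 23.0%, 41.4%, 25.3% and 21.8% in the same order. In PGF, 3 of the 87 had a larger difference than Rnu11, and 2 a larger one than Rnu12. Such places are a description, since the RNAs were chosen on these levels. For Rnu1b2 the number with a larger difference was 47 and for Rpph1 53, so these 2 RNAs lay in the middle of the class in PGF. In PGM, 10 of the 87 lay above Rnu11 and 14 above Rnu12. In HM it was 3 for each, and in HF 5 for each.

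**Figure D3:**
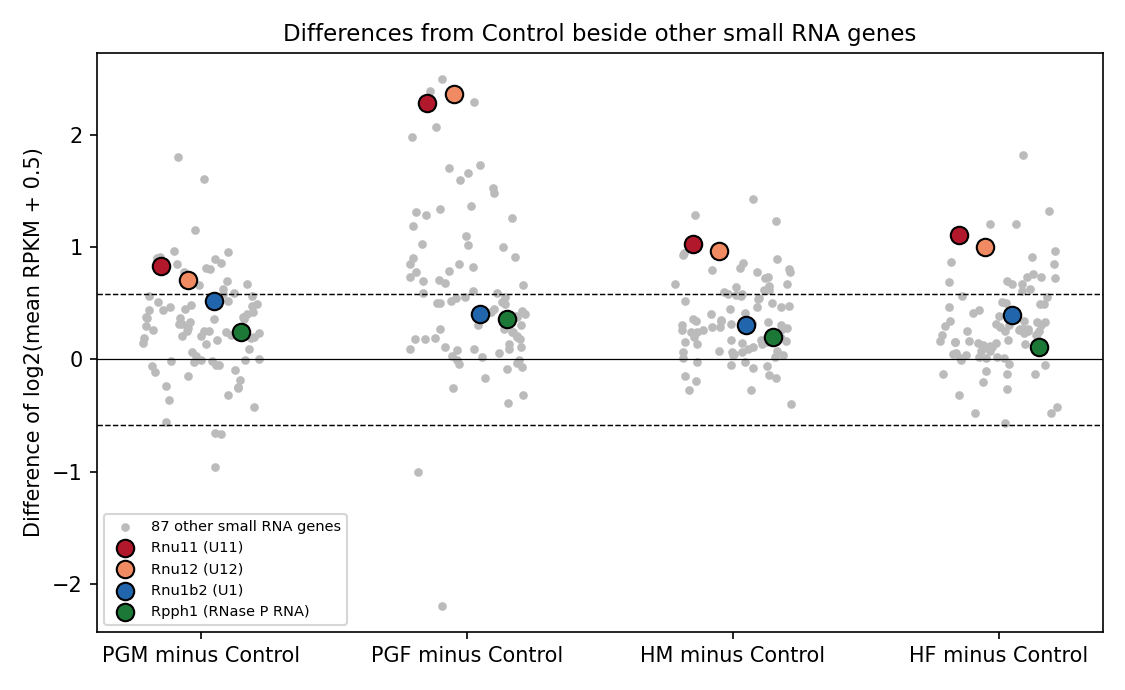
Difference of log2(mean RPKM + 0.5) from Control in PGM, PGF, HM and HF for the 4 RNAs (large points) and 87 other small RNA genes without microRNA precursors (grey points, spread sideways at random); dashed lines mark 1.5-fold. In PGF, Rnu11 and Rnu12 lie at 2.28 and 2.37, while Rnu1b2 and Rpph1 lie at 0.41 and 0.36, within the grey points.

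By class, the H/ACA nucleolar RNAs, which guide pseudouridylation, had a median difference of 0.44 for PGM, 0.78 for PGF, 0.54 for HM and 0.30 for HF over 33 genes. The C/D nucleolar RNAs, which guide methylation, had 0.21, 0.29, 0.26 and 0.24 in the same groups over 42 genes. The Cajal body RNAs guide the modification of spliceosomal RNAs themselves, and their median was 0.27 for PGM, 0.19 for PGF, 0.15 for HM and 0.12 for HF over 8 genes. The microRNA precursors had a median of 0.07 for PGM, 0.009 for PGF, -0.05 for HM and 0.06 for HF. Vaultrc5, a vault RNA and a short RNA polymerase III transcript, was at 30.1 RPKM for PGM, 134.9 for PGF, 42.6 for HM and 41.4 for HF, against 25.4 in Control, so PGF stood apart for it as for Rnu11 and Rnu12. Terc, the telomerase RNA, was at 4.68 RPKM for PGM, 6.48 for PGF, 5.69 for HM and 6.75 for HF, against 5.97 in Control, a log2 difference of 0.11 for PGF. Scarna8, a Cajal body RNA, was at 6.72 RPKM for PGM, 11.4 for PGF, 4.13 for HM and 7.65 for HF, against 4.39 in Control. Rnu73b, a nucleolar RNA despite its name, was at 6.38 RPKM for PGM, 6.69 for PGF, 4.92 for HM and 5.47 for HF, against 3.03 in Control. Rnu73a was listed at 0 in every group but Control, where it was at 0.30 RPKM. The search by symbol also covered other spliceosomal RNA genes with Rnu names, such as those of U2, U4, U5 and U6, and none was among the 87. Such genes under other names were not searched for.

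The genes whose pattern over the 5 groups came nearest to each RNA were found by the root mean square difference of centred log2 values. For Rnu11 the nearest of all named genes was Rnu12, at 0.07, and for Rnu12 it was Rnu11. Snora23 and Snora69, both guide RNAs of pseudouridylation, came next for each. Snora23 was at 122 RPKM for PGM, 264.5 for PGF, 110.3 for HM and 123 for HF, against 62.7 in Control, with 0.13 from Rnu11 and 0.18 from Rnu12. Snora69 was at 6.55 RPKM for PGM, 21.3 for PGF, 10.4 for HM and 10.6 for HF, against 3.95 in Control, with 0.16 from Rnu11 and 0.18 from Rnu12. For Rnu1b2 the nearest were Rab2A (0.032), Snhg3 (0.032), a noncoding host gene of small nucleolar RNAs, and Vsig8 (0.037). For Rpph1 they were Plekha5 (0.011), Gprc5b (0.016) and Prom1 (0.017). Rnu1b2 and Rpph1 were 0.12 from each other, further apart than Rnu1b2 was from many other genes: Rpph1 came in place 919 among the named genes.

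The messenger RNAs of the proteins that work with these RNAs stayed within 1.5-fold of Control in PGF. Of 10 genes of minor spliceosome proteins, 0 were at least 1.5-fold higher or lower in any of the 4 groups, and over all genes the share was 4.62% for PGM, 4.04% for PGF, 1.54% for HM and 0.829% for HF. The list's median difference was 0.11 for PGM, 0.08 for PGF, 0.05 for HM and 0.05 for HF. Snrnp35 encodes a U11/U12 particle protein and was at 9.31 RPKM for PGM, 10.9 for PGF, 9.30 for HM and 9.53 for HF, against 8.58 in Control. It had the largest PGF difference of this list, 0.33. Rnpc3 encodes the protein that joins U11 to U12 and was at 13.7 RPKM for PGM, 11.4 for PGF, 12.035 for HM and 12.7 for HF, against 10.5 in Control, the largest PGM difference of the list at 0.37.

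Among 16 genes of U1 particle and Sm proteins, 1 passed 1.5-fold in PGM, where 4.62% of all genes did. In PGF, HM and HF 0 passed, where 4.04%, 1.54% and 0.829% of all genes did. The gene that passed was Luc7l3, a U1-associated splicing factor. It was at 61.1 RPKM for PGM, 52.1 for PGF, 48.7 for HM and 45.5 for HF, against 38.3 in Control. Snrnp70, a protein bound directly to U1, was at 73.1 RPKM for PGM, 59.4 for PGF, 58.5 for HM and 56.4 for HF, against 50.6 in Control. For 5 of the 16 genes, Luc7l3 and Snrnp70 among them, PGM was the highest group and Control the lowest, as for Rnu1b2. Snrpn and Snrpd3 were highest in Control. Over all genes kept, PGM was the highest group for 29.2% and Control the lowest for 23.3%. The share of all genes with both was not counted, so nothing follows from the 5. The list's median was 0.15 for PGM, 0.06 for PGF, 0.03 for HM and 0.03 for HF.

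Of 11 genes of RNase P and MRP proteins 0 passed 1.5-fold against Control. Among all genes 4.62% passed for PGM, 4.04% for PGF, 1.54% for HM and 0.829% for HF. The list's medians were 0.13 for PGM, 0.03 for PGF, -0.001 for HM and 0.06 for HF. Rpp25, an RNA-binding subunit, was at 8.18 RPKM for PGM, 10.4 for PGF, 8.52 for HM and 9.20 for HF, against 7.10 in Control, and its PGF difference of 0.53 was the largest of the list. Pop5, another subunit, was at 47.8 RPKM for PGM, 48.2 for PGF, 44.8 for HM and 42.5 for HF, against 40.2 in Control.

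Genes that make and mature small nuclear RNAs were close to Control too. Of 26 genes of the small nuclear RNA promoter factors, the Integrator complex and related factors 0 passed 1.5-fold, and the median lay between 0.009 and 0.05 in the 4 groups. Pou2f1, which encodes the octamer-binding factor Oct-1, was at 12.6 RPKM for PGM, 12.1 for PGF, 10.96 for HM and 10.6 for HF, against 10.3 in Control. Of 20 genes of particle assembly 0 passed, with medians between -0.02 and 0.05. Tgs1, the enzyme that hypermethylates the cap of small nuclear RNAs, was at 13.6 RPKM for PGM, 14.8 for PGF, 15.5 for HM and 16.6 for HF, against 18.7 in Control, a difference of -0.45 in PGM and -0.33 in PGF. Of 11 genes of transfer RNA maturation, which share the precursors that RNase P trims, 0 passed and the medians lay between 0.02 and 0.09. Over all genes the share past 1.5-fold was 4.62% for PGM, 4.04% for PGF, 1.54% for HM and 0.829% for HF. With shares this small, a count of 0 does not set lists of this length apart from other genes. Levels of messenger RNA do not show how much protein, particle or splicing activity there was.

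**Figure D4:**
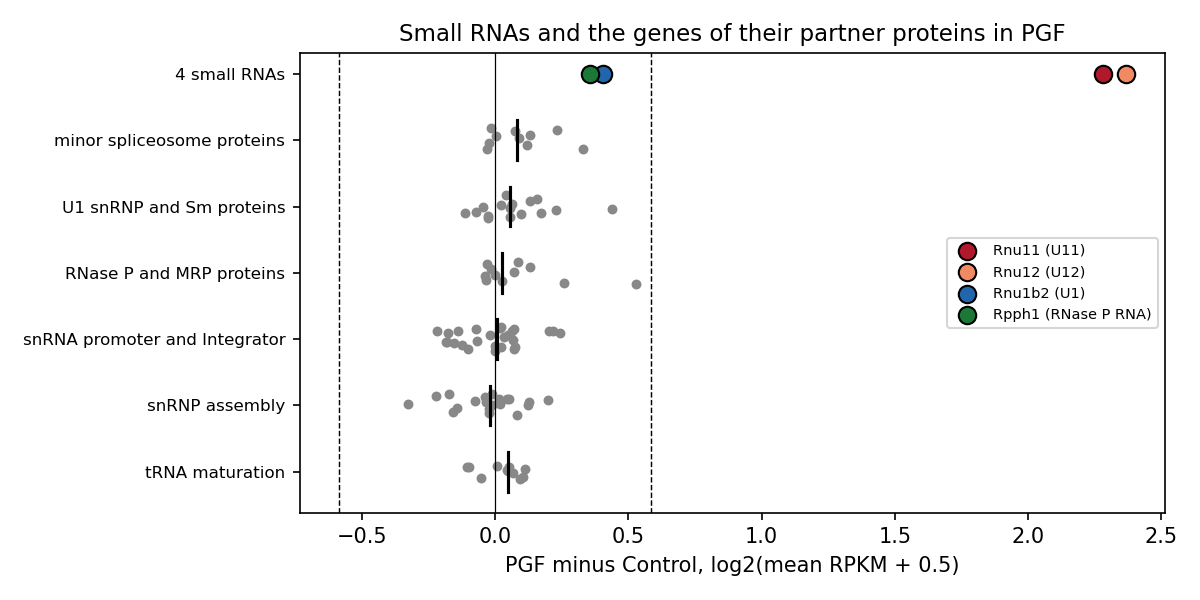
PGF minus Control in log2(mean RPKM + 0.5) for the 4 small RNAs (top row) and the genes of 6 lists of partner and pathway proteins (grey points, vertical bars at the list medians, spread vertically at random); dashed lines mark 1.5-fold. Rnu11 and Rnu12 lie at 2.28 and 2.37, while the list medians lie between -0.02 and 0.08 and no list gene passes 1.5-fold. Over all genes kept, 4.04% passed it in PGF.

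Genes beside Rnu11 and Rnu12 in the genome stayed near Control, while Parp2 beside Rpph1 stayed within 1.5-fold of Control, as Rpph1 did. Parp2, a DNA repair gene, starts 74 bases from Rpph1 on the opposite strand and was at 13.8 RPKM for PGM, 12.5 for PGF, 12.4 for HM and 13.1 for HF, against 11.4 in Control. Its log2 difference was 0.26 in PGM and 0.12 in PGF, where Rpph1 had 0.24 and 0.36. Poldip3 lies 260 bases from Rnu12 on the opposite strand and was at 66.8 RPKM for PGM, 66.7 for PGF, 67.1 for HM and 69.8 for HF, against 71.6 in Control. Cyb5r3, 3700 bases from Rnu12 on the other side, was at 37.6 RPKM for PGM, 38.0 for PGF, 38.1 for HM and 42.4 for HF, against 39.4 in Control. Taf12, 4162 bases from Rnu11, was at 19.5 RPKM for PGM, 20.6 for PGF, 19.1 for HM and 18.8 for HF, against 18.4 in Control. The largest difference from Control among Poldip3, Cyb5r3 and Taf12 was the 0.15 of Taf12 in PGF. The first exon of Ccnb1ip1 overlaps Rpph1 on the same strand, and Ccnb1ip1 was under the filter, between 0.21 RPKM in Control and 0.42 in PGF. A noncoding transcript, Gm28872, overlaps Rnu11 on the opposite strand and is not listed in the table. Whether the counting used strand is not stated in the sources used here, so reads of Rnu11 and of that transcript cannot be told apart. No gene in the table lies within 5 kb of Rnu1b2.

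Pituitary and myelin markers and the choroid plexus gene Ttr were highest in PGF, as Rnu11 and Rnu12 were. The sums of thalamus and of striatum markers were highest in PGM, but not every marker was. In PGF, 19 of 17481 genes had a difference at least as large as that of Rnu11, Rnu11 itself included. The 4 RNAs were chosen on these levels, so nothing follows from how few genes these were. Of the 19, 5 were small RNAs: Rnu11, Rnu12, Snora69, Snora81 and Vaultrc5. The rest included the pituitary hormone genes Prl, Gh, Pomc, Tshb, Fshb, Cga and Lhb, the thyroxine carrier gene Ttr of choroid plexus, and Y-linked genes such as Ddx3y and Uty. The summed level of 8 pituitary markers was 71.9 RPKM for PGM, 1658 for PGF, 89.8 for HM and 38.5 for HF, against 73.7 in Control. In PGF 6 of 6 kept markers were at least 1.5-fold higher than in Control, where 2.16% of all genes were. Prl and Fshb passed the filter only through PGF, at 55.9 and 13.1 RPKM there against 0.90 and 0.83 in Control. Their place in that count was thus fixed by the filter, and nothing follows from it. In HF, Prl and the pituitary factor gene Pou1f1 were listed at 0, while Gh was at 16.5 RPKM, Cga at 18.9 and Tshb at 1.87. The summed level of 8 choroid plexus markers was 132 RPKM for PGM, 478 for PGF, 48.3 for HM and 45.9 for HF, against 33.2 in Control. Most of that sum was Ttr, at 106 RPKM for PGM, 440.5 for PGF, 22.8 for HM and 18.7 for HF, against 7.01 in Control. The other 7 markers summed to 25.5 RPKM for PGM, 37.5 for PGF, 25.5 for HM and 27.2 for HF, against 26.2 in Control. Of all 8, 4 were at least 1.5-fold higher in PGF, beside the 2.16% of all genes. Among the choroid plexus markers Kcnj13 was highest in Control, at 4.62 RPKM against 4.27 in PGF. Clic6 was highest in HF, at 6.08 RPKM against 5.96 in PGF. The summed level of 8 thalamus markers was 391 RPKM for PGM, 383 for PGF, 205 for HM and 140 for HF, against 134 in Control. Of these 8, 7 were at least 1.5-fold higher than in Control for PGM and 8 for PGF, against 2.34% and 2.16% of all genes. Prkcd, Slc17a7 and Rgs16 were slightly higher in PGF than in PGM. The summed level of 8 striatum markers was 249 RPKM for PGM, 184 for PGF, 176 for HM and 194 for HF, against 166 in Control. Among them Drd2 was highest in PGF, and Rgs9 and Rxrg were highest in Control. Of the tissues summed here, only pituitary, choroid plexus and myelin thus had PGF as the highest group. The summed level of 8 myelin markers was 10765 RPKM for PGM, 13509 for PGF, 9216 for HM and 7125 for HF, against 6721 in Control. Ddx3y was at 30.4 RPKM for PGM, 32.0 for PGF, 16.8 for HM and 15.9 for HF, against 2.52 in Control, the lowest group here too. The summed level of 15 markers of hypothalamic neurons, which checks the labelled tissue, was 1967 RPKM for PGM, 2169 for PGF, 2435 for HM and 2384 for HF, against 2560 in Control, with none listed at 0. Of these 15 markers, 8 were at least 1.5-fold lower than in Control for PGM, 8 for PGF, 1 for HM and 0 for HF, where 2.28%, 1.88%, 0.864% and 0.172% of all genes were in the same groups. Pomc, the precursor of melanocortins and also a pituitary gene, was higher in PGF, at 369.7 RPKM against 24.3 in Control. Without Pomc the other 14 markers summed to 1951 RPKM for PGM, 1799 for PGF, 2412 for HM and 2364 for HF, against 2535 in Control, so PGF and not PGM was then the lowest group. The part of tissue makeup and of sex in the levels of the 4 RNAs was not tested.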

How the data were processed

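Total RNA of 15 samples was sequenced by the submitters. The submitters' processing notes name FastQC, Novoalign 2.08 and the mouse build mm10. The values are RPKM that the authors averaged over each group, per the file headers, rounded to 2 decimals; the counting program, its use of strand and the depth are not stated in the sources used here. A second header line inside the table was dropped. RPKM of transcripts this short depends on the length used and on the size selection of the library, neither of which is stated.

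Transcripts were reduced to the median per name and 17481 of 24831 names averaging 1 RPKM or more were kept. In 6 comparisons log2(mean RPKM + 0.5) was subtracted between groups and counted at 1.5-fold, with no test, since 1 mean per group leaves none. The planned test for values per sample was therefore not run. Positions and sequences are from GENCODE M21 (GRCm38), with RefSeq lengths beside them, and copies were found by edit distance.

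Named genes were the 4 RNAs, other small RNA genes of related symbols, genes within 5 kb, members of 6 partner lists past 1.5-fold or with the largest differences, and 3 genes of nearest pattern per RNA. Members at intermediate places in the lists are given by counts. Snora81 and the genes at or above Rnu11 in PGF were named after their values were seen. Markers of red blood cells were also computed, and their summed levels were 2822 RPKM for PGM, 3750 for PGF, 2327 for HM and 4384 for HF against 4998 in Control. Of 159 listed names, 5 were found by a synonym and 6 were not found. The RNAs and lists were chosen with earlier results of these data known. The calculations were tested on simulated data. Alternatives were pseudocounts of 0.1 and 1, upper quartile and quantile scaling, other summaries of transcripts, other filters, a 2-fold threshold and centring on other small RNA genes. Python 3.11.15, numpy 2.4.6, pandas 2.3.3, matplotlib 3.10.9 and edlib were used.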

Additional observations from a re-analysis of the deposited data

How the results depend on the processing

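Of 192 member differences recomputed under 8 other settings, 188 kept their direction and side of the threshold, or moved about 0 without reaching it. The threshold was 1.5-fold, except in the setting that raised it to 2-fold. With a 2-fold threshold Rnu11 (0.83) and Rnu12 (0.71) in PGM and Rnu12 in HM (0.97) no longer passed. After subtracting the median of the 159 other small noncoding RNA genes kept, Rnu12 in PGM was at 0.47, below 1.5-fold. These 159 include 72 microRNA precursors, and their median was 0.23 for PGM and 0.20 for PGF. The 87 without microRNA precursors had larger medians, 0.29 for PGM and 0.49 for PGF. Centring on the 87 was not run and would lower Rnu11 and Rnu12 further in PGM and PGF. Over the 8 settings that were run, the PGF differences ranged from 2.09 to 2.30 for Rnu11 and from 2.17 to 2.38 for Rnu12. Much of the 188 was fixed beforehand. Other summaries of transcripts change nothing here, since each RNA has 1 transcript. Quantile scaling gives Rnu1b2 and Rpph1 a difference of 0 by construction, since each held the same rank of level in every group. The other pseudocounts hardly act on levels this high, and the 2-fold setting reuses the same differences. Set against HF and not Control, an alternative chosen after seeing the data, PGF stayed higher for Rnu11 (1.17) and Rnu12 (1.36). PGM was then lower for Rnu11 (-0.28) and Rnu12 (-0.30), and HM for Rnu11 (-0.083) and Rnu12 (-0.035).

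The number of genes at 1.5-fold in either direction, used only as background, was 807 for PGM, 706 for PGF, 269 for HM and 145 for HF against Control, 173 between PGM and PGF and 293 between HM and HF. At 2-fold these were 145, 147, 38, 54, 50 and 46 in the same order. With no filter they were 496 for HM and 363 for HF against Control, 388 between PGM and PGF and 520 between HM and HF, and with a mean of at least 3 RPKM 172, 75, 93 and 182. With a pseudocount of 0.1 the number for PGM against PGF was 271. No paired analysis was possible because the file holds 1 mean per group and no value per sample, and no replicate could be left out for the same reason. Depth is unknown, so the counting error of the low genes cannot be given.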
